A study of Mus musculus with 8 samples.

Results

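The Hox genes described here are the 39 protein-coding genes of the 4 mouse Hox clusters, taken as every row of the count table whose symbol is Hox, a cluster letter from a to d and a number. They are 39 of 55353 rows, with 11 genes in the a cluster, 10 in b, 9 in c and 9 in d. Of the 39, 23 passed the filter on low counts and are among the 13992 genes tested, and the other 16 are described by their raw counts. They were measured by RNA-seq in vascular smooth muscle cells from the mouse aorta, in 8 libraries of 4 genotypes with 2 libraries apiece. These are wild type (WT) and knockout (KO) cells for E12, and wild type and knockout cells for E47. E12 and E47 are the splice forms of the E protein gene Tcf3, a basic helix-loop-helix transcription factor that binds E-box sequences. All cells had been frozen, were revived in culture dishes and were lysed for RNA. The 2 libraries of a genotype are described as independent extractions, and no source used here says that they came from separate animals or cultures. The p-values below therefore measure the spread between these extractions only, which may be technical. The sources used here do not give strain, age, passage, the number of lines per genotype or the way each knockout was made. Each knockout is compared with the wild type that carries its own name.

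Hox genes encode homeodomain transcription factors that give cells their position along the head-to-tail axis of the embryo. Within a cluster the genes are ordered by paralogue number, and low numbers at the 3' end are used further forward in the body than high numbers at the 5' end. Adult smooth muscle cells and fibroblasts keep a Hox pattern that reflects the place they came from, and the aorta has a known change of Hox pattern between the arch and the descending part. Polycomb complexes keep Hox genes silent, trithorax proteins keep them active, retinoic acid induces the 3' genes, and PBX and MEIS proteins bind DNA together with HOX proteins. Paralogue numbers 1 to 4 are called anterior here, 5 to 8 central and 9 to 13 posterior. On GRCm38 the a cluster lies at chr6:52155590-52260880, the b cluster at chr11:96194316-96368256, the c cluster at chr15:102921103-103036852 and the d cluster at chr2:74668310-74765142.

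Because E proteins bind the letters CANNTG, the promoters of 5 genes that represent the patterns below are shown first. Each sequence runs from 250 bases before to 50 bases after the start of the transcript (RefSeq, GRCm38.p6), 5' to 3' on the gene's strand, and capitals mark every CANNTG. Hoxa5 and Hoxa6 are neighbours that changed in opposite directions in E12 KO cells, Hoxb4 was higher in both knockouts, Hoxa9 was lower in both, and Hoxd8 was high in E47 WT cells alone.
Hoxa5 promoter, chr6:52204538-52204837, minus strand: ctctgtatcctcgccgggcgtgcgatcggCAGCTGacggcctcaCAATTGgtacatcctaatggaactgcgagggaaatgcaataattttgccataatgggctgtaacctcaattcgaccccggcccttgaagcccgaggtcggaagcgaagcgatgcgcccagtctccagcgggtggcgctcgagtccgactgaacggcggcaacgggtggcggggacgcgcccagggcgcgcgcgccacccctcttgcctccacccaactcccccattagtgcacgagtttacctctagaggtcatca
Hoxa6 promoter, chr6:52208623-52208922, minus strand: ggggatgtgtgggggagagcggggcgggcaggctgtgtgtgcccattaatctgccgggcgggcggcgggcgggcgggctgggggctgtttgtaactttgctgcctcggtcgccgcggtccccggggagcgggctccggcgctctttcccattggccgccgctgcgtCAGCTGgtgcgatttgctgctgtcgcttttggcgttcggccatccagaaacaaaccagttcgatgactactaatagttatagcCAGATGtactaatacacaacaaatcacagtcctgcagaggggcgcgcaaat
Hoxb4 promoter, chr11:96318017-96318316, plus strand: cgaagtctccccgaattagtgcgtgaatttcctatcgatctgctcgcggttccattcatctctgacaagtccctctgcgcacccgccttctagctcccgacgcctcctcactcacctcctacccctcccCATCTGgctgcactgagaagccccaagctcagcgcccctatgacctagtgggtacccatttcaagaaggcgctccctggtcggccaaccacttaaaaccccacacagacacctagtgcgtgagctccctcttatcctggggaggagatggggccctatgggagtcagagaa
Hoxa9 promoter, chr6:52227321-52227620, minus strand: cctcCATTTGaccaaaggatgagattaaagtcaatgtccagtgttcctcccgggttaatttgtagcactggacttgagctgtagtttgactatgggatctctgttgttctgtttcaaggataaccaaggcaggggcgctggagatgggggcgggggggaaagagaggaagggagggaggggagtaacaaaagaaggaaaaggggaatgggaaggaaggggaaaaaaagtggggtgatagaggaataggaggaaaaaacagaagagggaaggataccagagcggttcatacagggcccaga
Hoxd8 promoter, chr2:74704365-74704664, plus strand: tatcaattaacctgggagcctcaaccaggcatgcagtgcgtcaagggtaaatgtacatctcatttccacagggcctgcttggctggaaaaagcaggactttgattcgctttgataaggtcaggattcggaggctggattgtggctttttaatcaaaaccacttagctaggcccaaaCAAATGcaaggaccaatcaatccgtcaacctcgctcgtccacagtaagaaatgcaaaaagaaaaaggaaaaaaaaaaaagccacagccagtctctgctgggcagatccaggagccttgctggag
Promoter sequences matched 22 of the 39 genes, in 24 windows. CANNTG, which reads as CANNTG on both strands, occurred in 17 of the 24 Hox windows (70.8%), and in 72.3% of all 32851 windows of this length. CAGCTG, one form of CANNTG, occurred in 4 of the 24 (16.7%), against 16.3% of all windows. Those 4 windows belong to Hoxa3, Hoxa5, Hoxa6 and Hoxa11. CACCTG or its reverse complement CAGGTG, another form, occurred in 0 of the 24, against 20.2% of all windows. A CANNTG stood in the window of 4 of 4 matched genes that rose in E12 KO cells and of 3 of 7 that fell. In the E47 knockout it stood in 1 of 2 that rose and in 7 of 9 that fell, and it stood in a window of 74.99% of all 27025 genes. These are matches of letters only, and binding was not measured.

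Library totals ran from 13909230 to 27517374 counts, and the 2 libraries of each genotype differed by more than sampling noise. Tcf3 stood at 109 and 107 CPM (counts per 1e6 counts) in E12 WT cells, 145 and 143 in E12 KO cells, 94.5 and 93.7 in E47 WT cells and 128 and 128 in E47 KO cells. A gene count does not separate E12 from E47, so it does not check which form was lost. The cultured cells carried smooth muscle transcripts in all 8 libraries, with Acta2 between 1626 and 3693 CPM. Myh11, the defining marker of mature smooth muscle, was at 97.0 and 99.5 CPM in E47 WT cells and at or below 8.82 CPM in the other 6 libraries. Fewer cells of a type and less RNA per cell cannot be told apart in these bulk libraries.

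The cells expressed genes of the a and b clusters above all. Hox genes together made up 290 and 292 CPM in E12 WT cells, 221 and 219 in E12 KO cells, 538 and 513 in E47 WT cells, and 266 and 297 in E47 KO cells. The sum was thus lower in both libraries of each knockout than in both libraries of its wild type. Genes of the a cluster summed to 132 and 134 CPM in E12 WT cells and 314 and 295 in E47 WT cells. Those of the b cluster summed to 152 and 150 CPM in E12 WT cells and 191 and 182 in E47 WT cells. The c cluster was low, between 5.26 and 7.998 CPM in the 4 wild-type libraries. In the d cluster the sum was 27.8 and 30.7 CPM in E47 WT cells and at or below 0.51 CPM in each of the other 6 libraries. More than 3 counts over both libraries were found for 24 Hox genes in E12 WT cells, 16 in E12 KO cells, 28 in E47 WT cells and 22 in E47 KO cells.

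The order of the genes by level per length also differed among genotypes. In CPM per kilobase of exon, the E12 wild type was led by Hoxb6 at 16.2, followed by Hoxa5 at 15.4 and Hoxb8 at 13.6. In the E12 knockout Hoxa5 led at 26.7, ahead of Hoxb4 at 11.5 and Hoxb7 at 7.22. Hoxa5 also led in E47 WT cells, at 55.1, ahead of Hoxb6 at 24.4 and Hoxa6 at 18.3. In the E47 knockout Hoxb8 led at 17.7, followed by Hoxb6 at 15.9 and Hoxa5 at 13.5. These orders compare genotype means, and neighbouring ranks were not tested against each other.

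**Figure D1:**
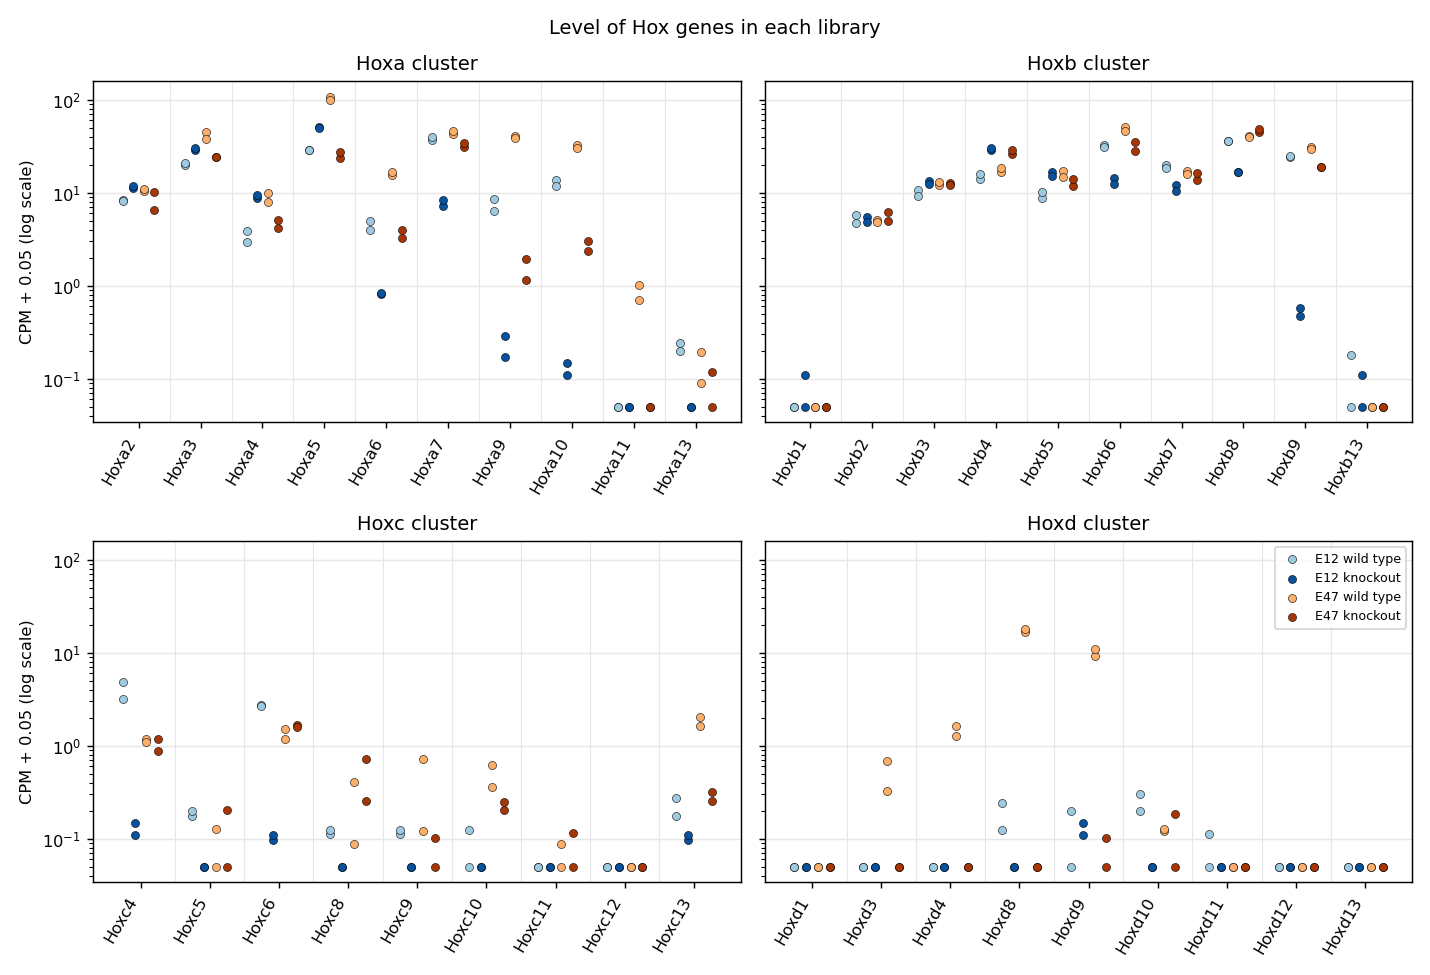
The level of Hox genes in each of the 8 libraries, in CPM with 0.05 added on a log axis, by cluster in order of paralogue number. Points are single libraries, coloured by genotype, and those on the lowest line have 0 counts. Hoxa9, Hoxa10 and Hoxb9 are far lower in E12 KO cells than in E12 WT cells, and Hoxd8 and Hoxd9 stand out in E47 WT cells.

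In the E12 knockout, anterior Hox genes were mostly higher, and the tested a and b genes numbered 6 and above were lower, than in E12 WT cells. Of the 23 genes tested, 19 passed edgeR's quasi-likelihood test at an adjusted p under 0.05, 7 higher and 12 lower, where 46.4% of all genes tested passed (21.9% higher and 24.5% lower). The genes that rose were Hoxa2, Hoxa3, Hoxa4, Hoxa5, Hoxb3, Hoxb4 and Hoxb5. Those that fell included Hoxa6, Hoxa7, Hoxa9, Hoxa10, Hoxb6, Hoxb7, Hoxb8, Hoxb9, Hoxc4, Hoxc6 and Hoxd8. Among the a and b genes tested, 7 of 9 numbered 1 to 5 rose, and 8 of 8 numbered 6 to 10 fell. The cut between numbers 5 and 6 was placed where the direction turned in these values. These counts on either side of it are therefore a description and no test. The turn lay in the same place in both clusters, between Hoxa5 and Hoxa6, whose annotated genes are 1700 bp apart, and between Hoxb5 and Hoxb6, 1766 bp apart. Falls were larger than rises: 8 Hox genes fell by more than 4-fold in the fit and 0 rose by that much, against 4.10% and 1.36% of all genes tested. Hoxd8 is among the 8 on 4 counts against 0, which bound its fall at 1.71-fold or more only. The median log2 change over the 23 genes was -0.77 from counts summed over a genotype, with totals under 3 set to 3. The median of their fitted changes was also -0.77, and that of all genes tested was -0.00820.

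In the E47 knockout nearly all changes were falls, and all 5 posterior genes tested were among them. Of the 23 genes tested, 17 passed the same test against the E47 wild type, 2 higher and 15 lower, where 55.2% of all genes tested passed (27.7% higher and 27.5% lower). Hoxb4 and Hoxb8 were the 2 that rose. All 3 tested d genes and 8 of 9 tested a genes fell, but only 3 of 8 tested b genes did. More than 4-fold falls were seen for 8 Hox genes (Hoxa5, Hoxa6, Hoxa9, Hoxa10, Hoxc13, Hoxd4, Hoxd8 and Hoxd9) and more than 4-fold rises for 0, against 2.78% and 3.51% of all genes tested. Of these, Hoxc13, Hoxd4, Hoxd8 and Hoxd9 passed the filter on low counts through E47 WT cells alone. The filter thus fixed the direction of their change, for all 3 d genes and for the posterior genes Hoxc13 and Hoxd9. Their falls are no separate support for the counts of falls given here. The median change over the 23 genes was -0.68 from summed counts, taken in the same way as for E12. The median of their fitted changes was -0.69, and that of all genes tested was 0.00920.

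The 2 knockouts shared some directions and not others. Against their own wild types, 8 genes fell in both, including Hoxa6, Hoxa7, Hoxa9, Hoxa10, Hoxb6, Hoxb9 and Hoxd8, and Hoxb4 rose in both. Hoxd8 is among the 8 on 4 counts against 0 for E12, and the filter fixed its E47 direction. Hoxa3, Hoxa4, Hoxa5 and Hoxb5 rose in E12 KO cells and fell in E47 KO cells, and Hoxb8 did the reverse. Taken singly, 21.9% of all genes tested rose and 24.5% fell in E12 KO cells. In E47 KO cells 27.7% rose and 27.5% fell, and joint shares were not taken. The difference of the 2 changes, E12 minus E47, passed the test for 16 of the 23 genes, 8 in each direction, where 48.6% of all genes tested passed (22.9% and 25.7% by direction). Hoxb2 passed in neither knockout. It stood between 4.63 and 6.08 CPM in all 8 libraries, with log2 changes of -0.03 (adjusted p 0.92) and 0.19 (adjusted p 0.38). It was the 1 tested Hox gene of 23 without a difference among the 4 genotypes by the F test over all groups, which 80.8% of all genes tested passed.

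**Figure D2:**
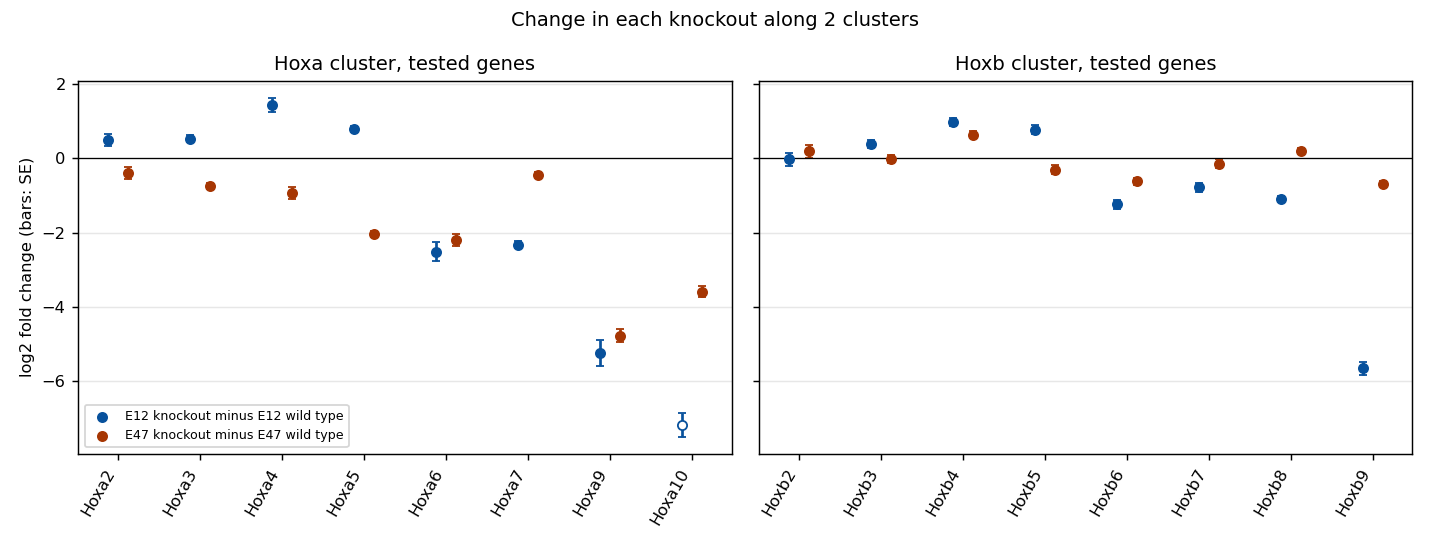
The log2 fold change of tested genes of the a and b clusters in E12 KO cells (blue) and E47 KO cells (red), each against its own wild type, in order of paralogue number. Bars are standard errors, and the open point is a gene with 3 counts in the knockout, whose fitted value is no bound. In the E12 knockout the points from Hoxa2 to Hoxa5 and from Hoxb3 to Hoxb5 lie above 0, and those from Hoxa6 and Hoxb6 on lie below it.

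Among the anterior genes, Hoxa2, Hoxa3 and Hoxa4 rose in the E12 knockout, and Hoxa3 and Hoxa4 fell in the E47 knockout. Hoxa2, which patterns the second pharyngeal arch, stood at 8.23 and 7.998 CPM in E12 WT cells, 11.2 and 11.8 in E12 KO cells, 10.3 and 10.9 in E47 WT cells and 6.50 and 10.03 in E47 KO cells. It rose in E12 KO cells by 0.50 (SE 0.165, adjusted p 0.022), and the E47 change of -0.39 (SE 0.161, adjusted p 0.051) did not pass the test. The rise lost its call without the second E12 knockout library (0.46, adjusted p 0.075). Hoxa3 acts in the third pharyngeal arch, from which the thymus, the parathyroid and the carotid artery form. Its level was 20.04 and 20.6 CPM in E12 WT cells, 28.4 and 30.3 in E12 KO cells, 44.4 and 37.7 in E47 WT cells and 24.2 and 24.3 in E47 KO cells. It rose by 0.53 (SE 0.0970, adjusted p 0.00039) in E12 KO cells, and its E47 change was -0.75 (SE 0.0904, adjusted p 6.3e-06). Both knockouts thus lay between the 2 wild types. Hoxa4 stood at 2.94 and 3.81 CPM in E12 WT cells, 8.79 and 9.43 in E12 KO cells, 9.81 and 7.92 in E47 WT cells and 4.11 and 5.08 in E47 KO cells. Its log2 changes were 1.44 (SE 0.187, adjusted p 1.7e-05) and -0.93 (SE 0.171, adjusted p 0.00030), a difference of 2.37 (SE 0.253, adjusted p 2.3e-06).

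In the b cluster the rises were smaller for Hoxb3 and largest for Hoxb4. Hoxb3 stood at 10.5 and 9.19 CPM in E12 WT cells, 13.3 and 12.5 in E12 KO cells, 12.1 and 12.9 in E47 WT cells and 12.5 and 12.2 in E47 KO cells. The E12 change of 0.39 (SE 0.117, adjusted p 0.014) passed the test, and the E47 change of -0.03 (adjusted p 0.85) did not. The E12 call was lost without the first E12 knockout library (0.34, adjusted p 0.083) and without the second E12 wild-type library (0.30, adjusted p 0.11). Hoxb4, known for expanding blood stem cells when overexpressed, stood at 14.1 and 15.8 CPM in E12 WT cells, 29.0 and 30.2 in E12 KO cells, 16.8 and 18.4 in E47 WT cells and 26.2 and 29.0 in E47 KO cells. All 4 knockout libraries lay above all 4 wild-type libraries, with log2 changes of 0.98 (SE 0.0990, adjusted p 1.2e-06) for E12 and 0.64 (SE 0.0943, adjusted p 4.7e-05) for E47. Hoxb4 was the 1 tested Hox gene that rose in both knockouts. Because strand was not kept, genes whose exons overlap another gene are uncertain: 52.9% of Hoxb3 exon bases are shared with other genes, 27.3% of Hoxb2, 27.1% of Hoxa3, 20.4% of Hoxa7, 16.0% of Hoxa4 and 15.0% of Hoxa2. Hoxa5, Hoxa6, Hoxa10, Hoxb4, Hoxb6, Hoxb7, Hoxb8, Hoxb9, Hoxc4, Hoxc6, Hoxd8 and Hoxd9 share none.

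Hoxa5 had the most divided response of the genes with more than 3 counts in every genotype that rose in E12 KO cells. Hoxa5, which is needed for lung and neck vertebra formation, stood at 28.9 and 28.8 CPM in E12 WT cells, 50.6 and 49.6 in E12 KO cells, 108 and 98.6 in E47 WT cells and 23.8 and 27.0 in E47 KO cells. The E12 change was 0.80 (SE 0.0847, adjusted p 2.1e-06), the E47 change -2.03 (SE 0.0824, adjusted p 2.9e-11) and their difference 2.82 (SE 0.118, adjusted p 6.7e-11). The 2 wild types were 1.84 apart on the log2 scale, with E12 at -1.84 relative to E47, so the E47 knockout lay near the E12 wild type and the E12 knockout between the wild types. Hoxb5 stood at 8.61 and 10.02 CPM in E12 WT cells, 16.6 and 15.1 in E12 KO cells, 17.3 and 14.9 in E47 WT cells and 11.9 and 14.04 in E47 KO cells. Its E12 change was 0.78 (SE 0.133, adjusted p 0.00022). The E47 change was -0.30 (SE 0.122, adjusted p 0.047), and it lost its call without the first E47 knockout library (-0.17, adjusted p 0.38) or the first E47 wild-type library (-0.21, adjusted p 0.24), and also without either E12 knockout library (adjusted p 0.054 and 0.053).

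From paralogue number 6 on, the E12 knockout was lower at every tested a and b gene. Hoxa6 stood at 4.91 and 3.96 CPM in E12 WT cells, 0.772 and 0.781 in E12 KO cells, 15.5 and 16.5 in E47 WT cells and 3.17 and 3.88 in E47 KO cells. It fell in both, by 2.51 (SE 0.255, adjusted p 1.3e-06) and 2.20 (SE 0.150, adjusted p 1.1e-08) on the log2 scale, and the difference of -0.31 did not pass the test (adjusted p 0.44). Hoxa6 and Hoxa5 are adjacent, and both promoters printed above hold a CAGCTG. Hoxa7 was at 37.1 and 39.5 CPM in E12 WT cells, 7.10 and 8.29 in E12 KO cells, 42.8 and 45.7 in E47 WT cells and 31.2 and 34.1 in E47 KO cells. Its log2 changes were -2.32 (SE 0.104, adjusted p 1.9e-10) and -0.45 (SE 0.0844, adjusted p 0.00042), a difference of -1.88 (SE 0.136, adjusted p 3.2e-08).

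The central b genes fell moderately in E12 KO cells. Hoxb6 stood at 32.3 and 31.2 CPM in E12 WT cells, 14.4 and 12.4 in E12 KO cells, 50.2 and 45.7 in E47 WT cells and 27.8 and 34.7 in E47 KO cells. Its changes were -1.24 (SE 0.117, adjusted p 6.6e-07) and -0.62 (SE 0.101, adjusted p 0.00011). Hoxb7, at 19.97 and 18.2 CPM in E12 WT cells and 12.02 and 10.3 in E12 KO cells, changed by -0.77 (SE 0.121, adjusted p 0.00010). It stood at 17.3 and 15.8 CPM in E47 WT cells and 13.6 and 16.2 in E47 KO cells, where the groups overlapped and the change of -0.14 did not pass (adjusted p 0.32). Hoxb8, whose overexpression blocks myeloid differentiation, stood at 36.2 and 35.6 CPM in E12 WT cells, 16.8 and 16.5 in E12 KO cells, 40.8 and 40.0 in E47 WT cells and 44.8 and 48.3 in E47 KO cells. It fell by 1.11 (SE 0.0833, adjusted p 5.8e-08) in E12 KO cells, and its E47 change was 0.20 (SE 0.0733, adjusted p 0.028). That small rise lost its call without the second E47 knockout library (0.16, adjusted p 0.16) or either E47 wild-type library (0.22, adjusted p 0.075, and 0.19, adjusted p 0.15), and the difference between knockouts was -1.31 (SE 0.111, adjusted p 1.9e-07).

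Within the a and b clusters the tested posterior genes Hoxa9, Hoxa10 and Hoxb9 had the deepest falls in the E12 knockout, and Hoxa9 and Hoxa10 had them in the E47 knockout. Hoxa9, a regulator of blood stem cells, stood at 6.32 and 8.45 CPM in E12 WT cells and 0.241 and 0.120 in E12 KO cells, which are 99 and 113 counts against 5 and 2. In the E47 wild type it stood at 40.9 and 38.4 CPM and in E47 KO cells at 1.09 and 1.87. Its log2 changes of -5.24 (SE 0.354, adjusted p 1.7e-08) and -4.78 (SE 0.179, adjusted p 1.1e-11) differed by -0.46, which did not pass the test (adjusted p 0.54). Hoxa9 was thus lower in every knockout library than in any wild-type library, and its 2 wild types differed by -2.43.

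Hoxa10 and Hoxb9 separated the 2 knockouts. Hoxa10, known for its role in the uterus, stood at 13.7 and 11.7 CPM in E12 WT cells, 0.0965 and 0.0601 in E12 KO cells, 32.7 and 30.5 in E47 WT cells and 2.29 and 3.01 in E47 KO cells. The E12 knockout held 3 counts against 370 in its wild type, a ratio of 159-fold lower with an exact 95% interval for counting error of 53.9 to 773 (adjusted p 1.4e-10). The E47 change was -3.59 (SE 0.143, adjusted p 2.2e-11). Hoxb9, which acts in the thoracic skeleton, stood at 24.2 and 24.97 CPM in E12 WT cells, 0.531 and 0.421 in E12 KO cells, 31.3 and 29.3 in E47 WT cells and 18.7 and 18.7 in E47 KO cells. Its fall of 5.65 (SE 0.171, adjusted p 3.4e-12) in E12 KO cells exceeded its E47 change of -0.69 (SE 0.0865, adjusted p 8.6e-06), a difference of -4.96 (SE 0.212, adjusted p 8.6e-11). Its b neighbour Hoxb8, 5309 bp away, changed by -1.11 in the same E12 comparison, and on the a cluster Hoxa7 and Hoxa9, 1245 bp apart, changed by -2.32 and -5.24.

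Of the c genes tested, the 2 with low paralogue numbers had 3 counts or fewer in E12 KO cells alone. Hoxc4 stood at 3.13 and 4.78 CPM in E12 WT cells, 0.0965 and 0.0601 in E12 KO cells, 1.15 and 1.05 in E47 WT cells and 0.832 and 1.14 in E47 KO cells. Its 3 counts against 113 were 48.4-fold lower (interval 16.2 to 238, adjusted p 3.3e-07) in E12 KO cells, and its E47 change of -0.17 did not pass (adjusted p 0.73). Hoxc6 stood at 2.68 and 2.62 CPM in E12 WT cells, 0.0483 and 0.0601 in E12 KO cells, 1.15 and 1.48 in E47 WT cells and 1.61 and 1.54 in E47 KO cells. With 2 counts against 77 it was 49.5-fold lower (interval 13.3 to 416, adjusted p 4.8e-07) in E12 KO cells, and its E47 change of 0.22 did not pass (adjusted p 0.53). For both genes the difference between the 2 changes passed the test (adjusted p 1.8e-05 for Hoxc4 and 2.9e-06 for Hoxc6). Hoxc13, a gene of hair and nail formation at the other end of the cluster, had 5, 2, 69 and 8 counts in WT and KO cells of E12 and then of E47. It stood at 2.01 and 1.60 CPM in E47 WT cells and 0.208 and 0.267 in E47 KO cells, a change of -2.87 (SE 0.422, adjusted p 4.3e-05). Hoxc13 passed the filter on low counts through E47 WT cells alone.

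The d cluster was found in E47 WT cells and nearly nowhere else. Its tested genes passed the filter on low counts through these cells alone, so a lower level in E47 KO cells was fixed by the filter. Hoxd8 stood at 16.7 and 17.9 CPM there, 691 counts in all, against 4 counts in E12 WT cells and 0 in each knockout. The E47 knockout was at least 199-fold lower, taking 3 counts over the group as the limit that 0 allows (adjusted p 3.1e-10). Hoxd8 also passed the E12 test, on 4 counts against 0 (at least 1.71-fold lower, adjusted p 0.043), and that call was lost without either E12 knockout library, the first E12 wild-type library or either E47 wild-type library (adjusted p between 0.054 and 0.20). Hoxd9 stood at 9.17 and 10.9 CPM in E47 WT cells, 408 counts in all, against 1 count in E47 KO cells. It was 352-fold lower there, with an interval of 62.9 to 13948 (adjusted p 1.6e-09), and the E12 groups held 2 and 3 counts. Hoxd4 stood at 1.22 and 1.60 CPM in E47 WT cells, 58 counts, and at 0 counts in the other 3 genotypes, so the E47 knockout was at least 16.7-fold lower. Its exons share 52.3% of their bases with other genes. Hoxd3, which was not tested, had 16 counts in E47 WT cells and 0 elsewhere. Hoxd10 had 6, 0, 3 and 2 counts over the 4 genotypes and Hoxd11 had 1, 0, 0 and 0.

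Endothelial transcripts moved with the d genes. The summed level of 10 endothelial markers was 737 and 668 CPM in E47 WT cells and between 20.6 and 45.0 CPM in the other 6 libraries, with 1 of the 10 at 0 counts in each genotype. All 9 tested endothelial markers fell in E47 KO cells and 3 of 9 fell in E12 KO cells. Cdh5, which defines endothelium, stood at 174 and 167 CPM in E47 WT cells and at or below 0.972 CPM elsewhere. Smooth muscle markers also moved, summing to 4510 and 4256 CPM in E47 WT cells and 2420 and 2377 in E47 KO cells, and to 2118 and 2178 CPM in E12 WT cells and 1816 and 1847 in E12 KO cells. Most of each of these sums was Acta2. Of the 10 smooth muscle markers, all tested, 2 rose and 6 fell in E12 KO cells, with a median log2 change of -0.81. In E47 KO cells 1 rose and 9 fell, with a median of -1.31. Mesothelial markers summed to 1584 and 1475 CPM in E12 WT cells, 874 and 894 in E12 KO cells, 222 and 205 in E47 WT cells and 398 and 412 in E47 KO cells. Msln, the defining mesothelial marker, rose instead in the E12 knockout, from 214 and 196 CPM to 253 and 237. In the E47 wild type it stood at 1.003 and 1.17 CPM and in E47 KO cells at 42.4 and 45.7. Of the 7 tested mesothelial markers 2 rose and 5 fell in E12 KO cells, and 6 rose and 1 fell in E47 KO cells. Beside the marker counts of this paragraph stand 46.4% (E12) and 55.2% (E47) of all genes tested that passed. Pdgfra, the defining fibroblast marker, was at 2.68 and 2.77 CPM in E12 WT cells and at 24.3 and 19.6 in E12 KO cells, and at 15.5 and 13.8 in E47 WT cells and 7.17 and 10.96 in E47 KO cells. The fibroblast list as a whole summed to 14371 and 15422 CPM in E12 WT cells, 14922 and 17045 in E12 KO cells, 11011 and 11060 in E47 WT cells and 11613 and 13469 in E47 KO cells. Of its 9 tested markers 4 rose and 2 fell in the E12 knockout, and 5 rose and 2 fell in the E47 knockout, Pdgfra being among the 2 that fell there. In all 8 libraries macrophage markers summed to between 11.4 and 16.4 CPM and Schwann cell markers to between 251 and 572. Ptprc and Sox10, which define blood cells and Schwann cells, were at or below 0.149 CPM. The part that other cell types play in the Hox differences was not tested.

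The genes left out of the test were mostly posterior. Of the 16, 11 were numbered 9 to 13, 2 were central and 3 anterior, and none had more than 25 counts in a library. Hoxc12, Hoxd1, Hoxd12 and Hoxd13 had 0 counts in all 8 libraries. Hoxa11, a gene of limb, kidney and uterus formation, had 34 counts in E47 WT cells and 0 in each other genotype, at least 9.79-fold lower in E47 KO cells. Hoxc9 had 2, 0, 18 and 1 counts, Hoxc10 had 1, 0, 16 and 6, and Hoxc8 had 2, 0, 6 and 14 in WT and KO cells of E12 and then of E47. Hoxa13, Hoxb1, Hoxb13, Hoxc5 and Hoxc11 had at most 5 counts in any genotype. A count of 0 in a single library allows a level of up to 0.117 to 0.224 CPM, depending on its depth.

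Summed by position, the anterior genes were higher and the posterior genes far lower in E12 KO cells than in their wild type. Anterior genes summed to 74.2 and 76.2 CPM in E12 WT cells, 102 and 105 in E12 KO cells, 110 and 103 in E47 WT cells and 85.0 and 92.1 in E47 KO cells. Central genes summed to 171 and 170 CPM, 118 and 113, 310 and 297, and 158 and 180 in the same order of genotypes. Posterior genes summed to 45.1 and 45.9 CPM in E12 WT cells, 1.01 and 0.781 in E12 KO cells, 118 and 113 in E47 WT cells and 22.5 and 24.3 in E47 KO cells. Their share of all Hox CPM was 15.5% and 15.7% in E12 WT cells and 0.458% and 0.356% in E12 KO cells. In the E47 wild type it was 21.9% and 22.001%, and in E47 KO cells 8.47% and 8.19%. By single paralogue number, the mean sum for number 5 was 38.3 CPM in E12 WT cells and 65.97 in E12 KO cells, and for number 6 it was 38.9 and 14.3. In the E47 wild type and knockout the means for number 5 were 119 and 38.4 CPM and for number 6 they were 65.3 and 36.3. For number 9 the mean sum was 32.1 CPM in E12 WT cells, 0.735 in E12 KO cells, 80.4 in E47 WT cells and 20.2 in E47 KO cells.

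**Figure D3:**
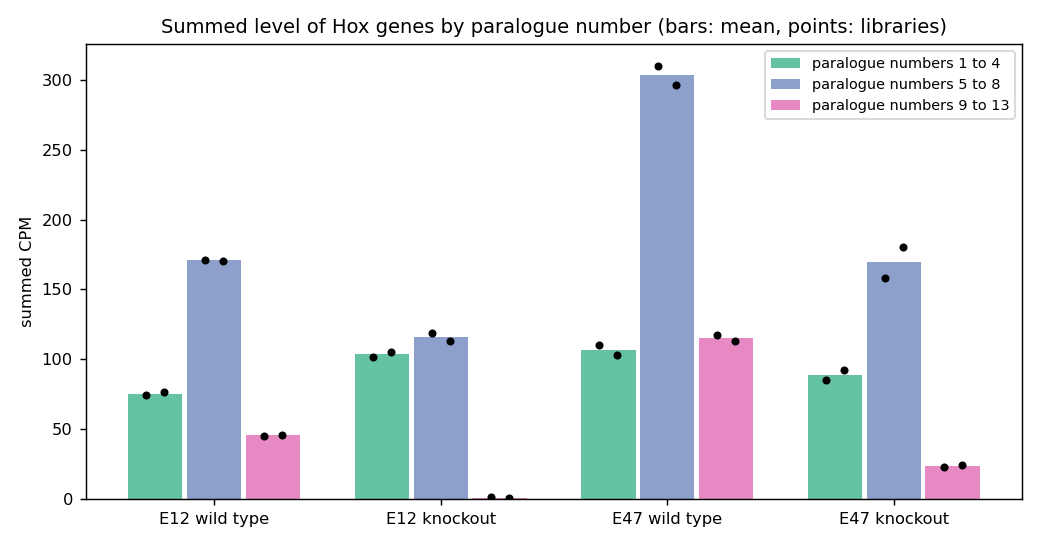
The summed level of the Hox genes of each genotype in CPM, grouped by paralogue numbers 1 to 4, 5 to 8 and 9 to 13. Bars are means of 2 libraries and points are the libraries. The posterior sum was 45.1 and 45.9 CPM in E12 WT cells and 1.01 and 0.781 CPM in E12 KO cells.

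Counted by position, 5 of 9 tested anterior genes rose in E12 KO cells and 2 fell, 2 of 9 central genes rose and 7 fell, and 3 of 5 posterior genes fell. The other posterior genes tested, Hoxc13 and Hoxd9, held at most 5 counts in either E12 genotype. In the E47 knockout 1 of 9 anterior genes rose and 4 fell, 1 of 9 central genes rose and 6 fell, and 5 of 5 posterior genes fell. These falls include Hoxd4, Hoxd8, Hoxc13 and Hoxd9, whose direction was fixed because they passed the filter through E47 WT cells alone. Of all genes tested, 21.9% rose and 24.5% fell in E12 KO cells, and 27.7% rose and 27.5% fell in E47 KO cells. The E12 counts of 2 of 9 are near those shares. As a description across genes, which are not independent replicates, Spearman's rho between paralogue number and log2 change was -0.67 over the 9 tested a genes and -0.71 over the 8 tested b genes in E12 KO cells. In the E47 knockout it was -0.70 and -0.45.

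The 2 wild types were far from equal in their Hox genes. Between E12 and E47 wild type 17 of 23 tested genes passed the test, 2 higher in E12 and 15 lower, where 55.4% of all genes tested passed (27.8% higher and 27.6% lower). More than 4-fold, 0 were higher and 5 lower (Hoxa9, Hoxc13, Hoxd4, Hoxd8 and Hoxd9), against 3.72% and 4.74% of all genes tested. Of these, Hoxc13, Hoxd4, Hoxd8 and Hoxd9 passed the filter on low counts through E47 WT cells alone. The filter thus fixed their direction here, also among the 15 lower genes. The 2 higher in E12 WT cells were Hoxc4 (log2 difference 1.84) and Hoxc6 (0.97, adjusted p 0.0058). Hoxa5 was lower in E12 WT cells by -1.84 and Hoxa6 by -1.84, Hoxa9 by -2.43, Hoxa10 by -1.31 and Hoxc13 by -3.30. Hoxd8 differed by -6.90, on 4 counts against 691, and Hoxd9 was 150-fold lower on 2 counts (interval 41.2 to 1240). Differences in the b cluster were smaller, with 4 of 8 tested genes lower in E12 WT cells, Hoxb5 by -0.77 and Hoxb6 by -0.59 among them. Without the first E12 wild-type library Hoxb9 did not pass (-0.27, adjusted p 0.059), nor did it without the first E47 wild-type library (-0.25, adjusted p 0.060). Hoxb3 did not pass without the second E12 wild-type library (-0.26, adjusted p 0.15) or the second E47 wild-type library (-0.29, adjusted p 0.15). Hoxa7 (-0.21, adjusted p 0.044) lost its call without the first E12 wild-type library (-0.16, adjusted p 0.22), either E47 wild-type library, either E47 knockout library or the second E12 knockout library (adjusted p 0.050 to 0.27). Each knockout change above is therefore read against a control with its own Hox pattern.

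Between the 2 knockouts, 15 of 23 tested genes passed, 5 higher in E12 KO cells and 10 lower, where 52.9% of all genes tested passed (25.9% higher and 27.0% lower). More than 4-fold, 0 were higher and 7 lower, against 1.12% and 5.60% of all genes tested. Hoxa2, Hoxa3, Hoxa4, Hoxa5 and Hoxb5 were higher in E12 KO cells, with log2 differences of 0.50, 0.27, 0.998, 0.99 and 0.30. Among the a and b genes numbered 6 to 10, 8 of 8 were lower in E12 KO cells, Hoxb9 by -5.26, Hoxa9 by -2.89, Hoxa6 by -2.16, Hoxa7 by -2.09, Hoxb8 by -1.48 and Hoxb6 by -1.20. Hoxa10 was 32.4-fold lower (interval 10.7 to 160), Hoxc6 29.5-fold (7.78 to 250) and Hoxc4 12.02-fold (3.77 to 61.2). Hoxb7 was lower by -0.41. The cut at number 6 was taken from the comparison of E12 KO with E12 WT cells, which uses the same E12 KO libraries. Some of the smaller calls rest on single libraries. Without the second E12 knockout library Hoxa2 (adjusted p 0.062), Hoxa3 (0.11) and Hoxb7 (0.11) did not pass. Without the first E47 knockout library Hoxa2 (0.29), Hoxa3 (0.087) and Hoxb5 (0.34) did not pass. The same held for Hoxa3 (0.069) and Hoxb7 (0.13) without the second E47 knockout library, and for Hoxb5 (0.23) without the first E12 knockout library. None of the 3 tested d genes passed between the knockouts, where they held at most 3 counts per genotype.

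Over the 23 tested genes, the most alike Hox profiles were those of E12 WT and E47 KO cells. The root mean square difference between their genotype means of log2(CPM + 0.5) was 0.777. It was 1.94 between E12 wild type and knockout, 2.02 between E47 wild type and knockout and 1.72 between the wild types. Between the knockouts it was 1.40, and between E12 KO cells and the E47 wild type it was 2.77. The 2 libraries of a genotype differed by 0.121 to 0.254. Over all 13992 genes tested the same 2 genotypes were also the closest, at 0.618, and the E12 knockout and E47 wild type the farthest, at 1.10. The order at both ends was thus the same for Hox genes and for all genes, as a description without a test. Hoxc13, Hoxd4, Hoxd8 and Hoxd9 are among the 23 through E47 WT cells alone, which enlarges each Hox distance from E47 WT cells. The far end of the Hox order is thus partly fixed by the filter.

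Other transcripts inside the clusters were counted too. Of the 17 noncoding genes listed for the clusters that had a row, 7 were tested, of which 3 rose and 1 fell in E12 KO cells, and 0 rose and 4 fell in E47 KO cells, against 46.4% and 55.2% of all genes tested that passed in either direction. Hoxb5os, antisense to Hoxb5, had a mean of 2.78 CPM ± 0.225 (SD, n = 2) in E12 WT cells and 9.69 ± 0.703 in E12 KO cells, a rise of 1.80 (SE 0.189, edgeR adjusted p 1.9e-06). In the E47 wild type and knockout it had 3.57 ± 0.0822 and 2.58 ± 0.704 CPM, a change of -0.50 that did not pass (edgeR adjusted p 0.062). Hoxaas2 changed by 0.79 (adjusted p 0.00097) and -0.72 (adjusted p 0.00037). Hoxaas3, which overlaps Hoxa7 on the other strand, changed by -2.52 (adjusted p 2.6e-05) in E47 KO cells and by -0.33 (adjusted p 0.54) in E12 KO cells. Since strand was not kept, reads of Hoxaas2, Hoxaas3 and Hoxb5os cannot be told apart from those of Hoxa3, Hoxa7 and Hoxb5 where they overlap. Hoxd3os1 followed the d genes, with 29 counts in E47 WT cells and 0 in each other genotype, and it too passed the filter through E47 WT cells alone. The falls counted above include Hoxd3os1 for E47, and for both knockouts Mir196a-1, which passed the filter through wild-type libraries alone.

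Transcripts at 2 loci between Hoxb9 and Hoxb13, Gm53 and Mir196a-1, were also lower in both knockouts, and neither is separate support for the Hox falls. Gm53, a long noncoding gene at chr11:96251105-96264868 (GRCm38) that was chosen after its values were seen, had 207, 2, 307 and 21 counts in WT and KO cells of E12 and then of E47. It was 133-fold lower in E12 KO cells (interval 36.4 to 1107, edgeR adjusted p 1.2e-08) and changed by -3.64 (SE 0.281, edgeR adjusted p 4.8e-08) in E47 KO cells. Next to it, the gene row of Mir196a-1 had 22, 2, 33 and 1 counts in the same order, 14.1-fold lower in E12 KO cells (interval 3.48 to 124, edgeR adjusted p 0.0022) and 28.5-fold lower in E47 KO cells (interval 4.77 to 1159, edgeR adjusted p 0.00061). Mir196a-1 passed the filter on low counts through wild-type libraries alone, so a lower level in the knockouts was fixed by the filter. Both microRNAs of this family have a gene within or beside the posterior Hox genes, Mir196b inside Hoxa9, and they are printed here because they share a seed (bases 2 to 8, in capitals; RefSeq, GRCm38.p6).
mmu-miR-196a-5p: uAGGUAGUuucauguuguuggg
mmu-miR-196b-5p: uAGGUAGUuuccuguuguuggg
A polyA-enriched library does not measure the mature microRNA, so these counts are of longer transcripts that cover the locus. The miR-196 family is known to target Hox messages, Hoxb8 among them.

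The listed genes flanking the clusters stayed within 4-fold in the E12 knockout. Those tested lay between 28865 bp (Ttll6) and 910371 bp (Nfe2l2) from their cluster, so they do not cover its immediate borders. Of the 22 flanking genes tested, 7 rose and 4 fell in E12 KO cells, with changes from -0.73 (Snx11) to 0.93 (Ttll6, which did not pass). In the E47 knockout 9 rose and 5 fell, from -0.65 (Skap2) to 2.16 (Ttll6), the 1 gene past 4-fold. These counts stand beside 46.4% (E12) and 55.2% (E47) of all genes tested that passed. The homeobox genes Evx1 and Evx2, 52618 and 8753 bp from the 5' ends of the a and d clusters, had 0 counts in all 8 libraries.

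**Figure D4:**
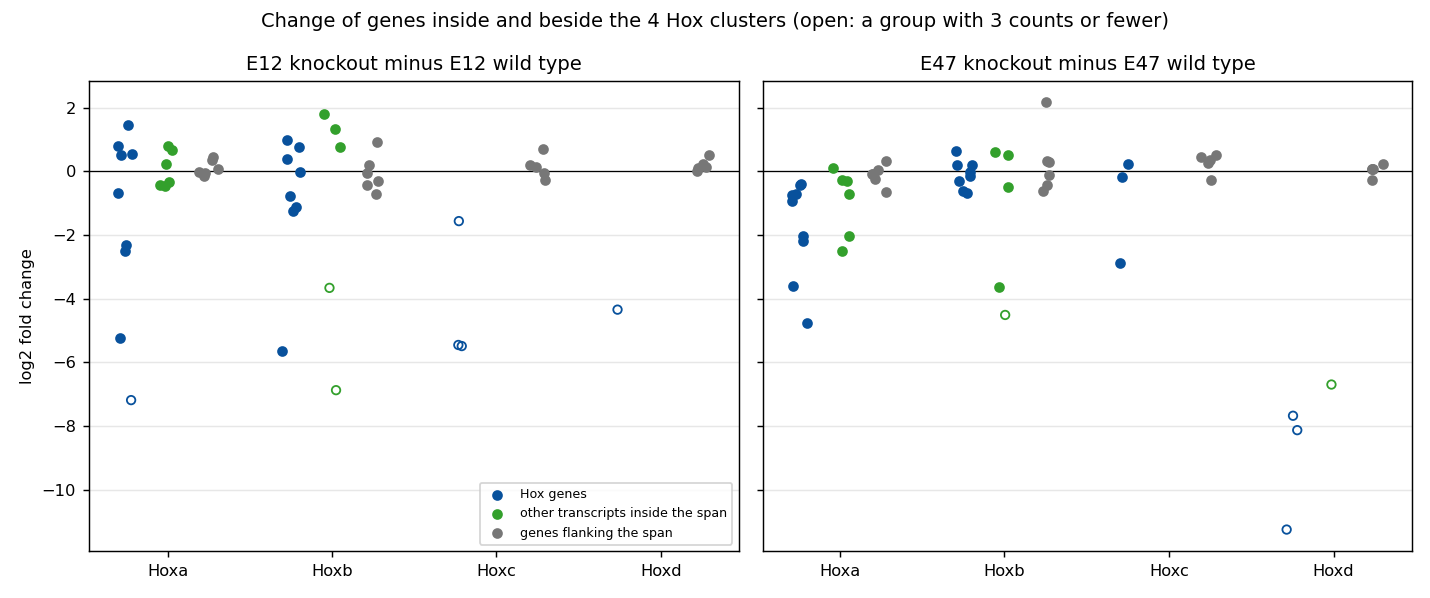
The log2 fold change in E12 KO cells (left) and E47 KO cells (right) of the tested Hox genes (blue), other transcripts inside each cluster's span (green) and genes flanking it (grey), by cluster. Points are genes, spread sideways for legibility, open points have a group with 3 counts or fewer, whose fitted values are no bounds, and genes with both groups at 3 counts or fewer are not drawn. Flanking genes lie between -0.73 and 0.93 in E12 KO cells, where Hox genes of the a and b clusters reach below -5. The flanking genes drawn are 28865 to 910371 bp from their cluster.

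Genes for partners of HOX proteins changed in both directions. Of 11 TALE homeobox genes (the Pbx, Meis, Pknox and Tgif genes), all tested, 5 rose and 2 fell in E12 KO cells and 5 rose and 4 fell in E47 KO cells, where 46.4% and 55.2% of all genes tested passed. Meis2 changed by 0.90 (SE 0.0786) in E12 KO cells and -0.57 (SE 0.0800) in E47 KO cells. Among the anterior Hox genes these are the signs of Hoxa3 and Hoxa4, but not of Hoxb4, which rose in both, or Hoxc4, which fell in E12 KO cells. Pknox2 fell in both, from 3.37 ± 0.620 to 0.283 ± 0.146 CPM (SD, n = 2) and from 22.04 ± 0.478 to 11.4 ± 0.471 CPM. Pbx4 changed by -0.80 and 1.56. All of these values of named genes passed edgeR's test.

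Inducers of Hox expression, including the enzymes that set retinoic acid levels, changed in both directions. Of 21 such genes listed 13 were tested, of which 5 rose and 4 fell in the E12 knockout and 6 rose and 3 fell in the E47 knockout, beside 46.4% and 55.2% of all genes tested. Aldh1a2, which makes retinoic acid, stood at 14.9 ± 0.255 CPM (SD, n = 2) in E12 WT cells and 0.355 ± 0.0926 in E12 KO cells, and at 83.9 ± 1.84 in E47 WT cells and 28.2 ± 2.95 in E47 KO cells. Its log2 changes were -5.39 (SE 0.213, adjusted p 4.3e-11) and -1.57 (SE 0.0819, adjusted p 5.3e-10). Cyp26b1, which breaks retinoic acid down, changed by -4.06 (SE 0.130) and -0.74 (SE 0.0953). Aldh1a1, another enzyme of retinoic acid synthesis, changed by -0.99 and 0.35, and Rara, a retinoic acid receptor, rose by 0.46 and 0.45. Egr2, which activates Hox genes in the hindbrain, rose by 3.06 (SE 0.208) in E47 KO cells. Retinoic acid itself was not measured.

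Chromatin regulators of Hox genes moved by smaller amounts. Of 25 Polycomb genes, all tested, 9 rose and 3 fell in E12 KO cells and 8 rose and 5 fell in E47 KO cells, with medians of 0.19 and -0.05. As for the lists that follow, 46.4% (E12) and 55.2% (E47) of all genes tested passed, and the Polycomb counts are near those shares. Bmi1, a subunit of Polycomb repressive complex 1, changed by 0.63 (SE 0.0703) in E12 KO cells and -0.23 (SE 0.0682, adjusted p 0.011) in E47 KO cells. Pcgf5 changed by -0.50 and -1.002, Phc1 by 0.61 and 0.23, and Pcgf2, whose loss shifts the vertebral pattern, rose by 0.78 in E47 KO cells. Of 14 trithorax group and opposing genes, all tested, 6 rose and 1 fell in E12 KO cells and 3 rose and 5 fell in E47 KO cells. Ash2l rose by 0.50 and 0.21, Men1 changed by -0.30 and 0.28, and Ash1l changed by -0.94 in E47 KO cells. Of 60 homeobox genes outside the clusters 41 were tested, and 10 rose and 11 fell in E12 KO cells and 16 rose and 20 fell in E47 KO cells. Among them Emx2 changed by -1.17 and 2.01 and Nkx2-3 by -1.62 and 1.74, opposite directions in the 2 knockouts. Prrx1, a mesenchymal homeobox gene, changed by 1.78 in E47 KO cells and by 0.02 (adjusted p 0.83) in E12 KO cells. Lhx2 changed by -5.26 in E47 KO cells. Of the 7 E protein and Id genes 2 rose and 3 fell in each knockout, with Tcf3 changing by 0.41 (adjusted p 8.6e-05) and 0.44 (adjusted p 3.4e-05).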

How the data were processed

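RNA-seq libraries of aortic vascular smooth muscle cells were made without keeping strand from polyA-enriched RNA, per the labels' protocols. FastQC, HISAT and featureCounts, with GRCm38 (mm10), appear in the submitters' processing notes. What was not given in the sources used here are tool versions and settings, the annotation and the handling of multi-mapping reads. The authors deposited raw counts, as whole numbers for each gene and library.

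All 8 libraries were fitted together in R 4.3.3 with edgeR 4.0.16. After the default filter on low counts for 4 groups, 13992 genes were tested in a 4-group model with TMM scaling and the quasi-likelihood F test, with 4 residual degrees of freedom. P-values were adjusted by Benjamini-Hochberg over those genes, and genes with an adjusted p under 0.05 are said to have passed, risen or fallen. CPM uses TMM-scaled totals. Changes are log2 fold changes of knockout against wild type, with SE taken as the change divided by the square root of F. For a single gene compared between 2 genotypes, no fitted fold is given where a genotype had 3 counts or fewer. Against 0 counts the bound takes 3 counts over the group, and for 1 to 3 counts the ratio has an exact 95% interval. The counts past 4-fold, the rank correlations, the figures of changes and the differences of the 2 changes use fitted values throughout. Bounds and intervals cover counting error only, because the libraries carry no stated molecular identifiers and reads are not independent molecules. The method was tried on simulated counts, with the same spread for every gene and far fewer changed genes than were called here. Of 50 genes changed at each size, 66% were recovered at 1.5-fold, 92% at 2-fold, 100% at 4-fold and 92% at 8-fold. There were 11 false calls among 13659 genes. Changes under 1.5-fold were not simulated. Gene positions, exon lengths and overlaps come from the GENCODE annotation of GRCm38, and sequences from RefSeq. DESeq2 1.42.0, other scalings, no filter, 2-group fits and leaving out each library were the alternatives. The Hox genes, the lists and the tests were chosen with earlier results of these data known. All 39 Hox genes are in the counts and sums, and the individual results of some genes are not reported here. Other genes are named as the members of each list with the lowest p, up to 4 per knockout, and cell type markers by sums and defining genes.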

Additional observations from a re-analysis of the deposited data

Results flagged for a closer look

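For 16 of the 23 tested Hox genes the change in the E12 knockout differed from the change in the E47 knockout by edgeR's test of the difference itself, where 48.6% of all genes tested did. Values are the E12 change minus the E47 change on the log2 scale. The difference was positive for Hoxa2 (0.89), Hoxa3 (1.28), Hoxa4 (2.37), Hoxa5 (2.82), Hoxb3 (0.41), Hoxb4 (0.35) and Hoxb5 (1.08), which are all numbered 2 to 5. It was negative for Hoxa7 (-1.88), Hoxb6 (-0.61), Hoxb7 (-0.63), Hoxb8 (-1.31) and Hoxb9 (-4.96), all numbered 6 to 9. The fitted differences of Hoxa10 (-3.60), Hoxc4 (-5.32), Hoxc6 (-5.67) and Hoxd9 (8.33) rest on genotypes with 3 counts or fewer and have no reliable size. For Hoxd9 both E12 genotypes were at that level, so its value reflects the fall in the E47 knockout. By sign, Hoxc4 and Hoxd9 lie outside the split by number given for the a and b genes. The differences of Hoxb3 and Hoxb4 are the weakest of the 16, with adjusted p-values of 0.046 and 0.048. Hoxb3 lost its call without each library except the first E12 wild-type library (adjusted p 0.054 to 0.16). Hoxb4 lost its call without either E12 knockout library, the first E12 wild-type library, the first E47 knockout library or the second E47 wild-type library (adjusted p 0.063 to 0.21).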

How the results depend on the processing

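No paired analysis was possible because the labels give the groups no shared replicate numbers. The counts of Hox genes called stayed within 1.5 times under every alternative run. Leaving out each library in turn gave 17 to 19 genes for E12 (19 with all libraries), 16 to 19 for E47 (17), 14 to 15 for the difference (16), 15 to 18 between wild types (17) and 13 to 16 between knockouts (15), and 22 to 24 with any difference among genotypes (22). The other alternatives gave 16 to 19, 16 to 19, 14 to 16, 14 to 20, 12 to 16 and 22 to 27. Of 1075 values of single Hox genes under alternatives 0 changed direction among the called results, 71 lost their call and 1004 did not, over 15 of 84 results. With library totals in place of TMM the median change of all genes moved to 0.165 in the E47 knockout and 0.0831 in the E12 knockout. The genes called higher and lower were then 5378 and 2638 for E47, against 3876 and 3853, and 4068 and 2783 for E12, against 3065 and 3426. Under DESeq2 the E12 calls of Hoxa2 (adjusted p 0.084), Hoxb3 (0.12) and Hoxd8 (0.059) and the E47 calls of Hoxb5 (0.17) and Hoxb8 (0.20) were lost. The E47 change of Hoxb5 was -0.15 (adjusted p 0.32) with library totals. The differences of Hoxb3 and Hoxb4 lost their calls under DESeq2 (0.25 and 0.22) and without most single libraries. Between wild types, Hoxa7, Hoxb3, Hoxb9 and Hoxc6, and between knockouts Hoxa2, Hoxa3, Hoxb5 and Hoxb7, lost their calls under DESeq2 (adjusted p from 0.060 to 0.22). The causes were not tested. Where a genotype had 3 counts or fewer, depth allows only a bound or a wide interval.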
